A study of Mus musculus with 18 samples.

Results

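The cyclin-dependent kinase (CDK) inhibitors described here are the 7 genes Cdkn1a, Cdkn1b, Cdkn1c, Cdkn2a, Cdkn2b, Cdkn2c and Cdkn2d. Members were all probe sets annotated to 1 symbol among these 7, which gave 9 of the 22690 probe sets on the array. Cdkn1a and Cdkn1b had 2 probe sets each and the other 5 genes had 1. Single-colour arrays read the RNA of 18 microdissected lung tumours, taken at 10 weeks of age from 6 mice of strain C57/B6-129SvJae. The labels describe the treated tumours as p53 restored: their hosts received tamoxifen by 2 intraperitoneal injections, and tumours of treated mice were taken on day 7. The entries for 2 injections and day 7 are the same for all 18 tumours, the untreated ones included. The series held 6 treated grade 3 tumours and 4 treated grade 2 tumours, and 4 untreated grade 3 tumours and 4 untreated grade 2 tumours. Grade 3 tumours are adenocarcinomas and grade 2 tumours are adenomas, per the labels. The labels name no tumour-driving allele, no Cre driver and no vehicle for the untreated mice.

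A single female, mouse 8688, carried 9 of the 10 treated tumours (all 6 of grade 3 and 3 of grade 2), and the male 8639 carried 1 of grade 2, 8639T4. Untreated tumours, 8 in all, were from 4 males (8584, 8565, 8629 and 8700). Animal and treatment cannot be told apart, and sex and treatment nearly so. Tumours of a mouse are not independent, so p-values over tumours are too small and intervals over tumours too narrow. Markers of alveolar type 2 cells (7 of 7 measured) and of lung epithelium (6 of 7, all but Nkx2-1) lay above the array median on all 18 arrays, as did 9 of 9 macrophage markers. So did 6 of 6 alveolar type 1, 5 of 6 fibroblast and 6 of 7 endothelial markers. The mean 3' minus 5' signal of 2 control transcripts, a sign of RNA quality, was 2.62 in 8688T3 and 1.85 in 8639T4 on the log2 scale, against 1.05 or less in the other 16 tumours. Values below are deposited log2 signals, and array medians ran from 6.05 to 6.18. Signals of different probe sets cannot be set against each other, so each is read against its own spread and its array's median. In these bulk samples, fewer cells of a type and less RNA per cell cannot be told apart.

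CDK inhibitors slow the cell cycle by binding the kinases that drive it. Cdkn1a (p21), Cdkn1b (p27) and Cdkn1c (p57) form the Cip/Kip family, which bind cyclin-CDK complexes and inhibit above all those of CDK2. Cdkn2a (p16), Cdkn2b (p15), Cdkn2c (p18) and Cdkn2d (p19) form the INK4 family, which bind CDK4 and CDK6 and keep cyclin D from activating them, so that the retinoblastoma protein stays active and holds back E2F. Cdkn2a also encodes ARF from another first exon and reading frame. ARF inhibits MDM2, the ubiquitin ligase that degrades p53, while Cdkn1a is a classic transcriptional target of p53. In mouse models of lung adenocarcinoma, loss of p53 permits progression, and restoring it has been used to ask which tumours respond.

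The Cdkn1a promoters are shown because Cdkn1a is the member that p53 is known to activate. RefSeq sequences on GRCm38.p6, each running from 250 bases before to 50 bases after a gene start, were found for 6 of the 7 genes, with 9 windows in all. Cdkn1c had none. Cdkn1a had 2 windows on chromosome 17, plus strand, whose starts lay 2790 bases apart: chr17:29090729-29091028 and chr17:29093519-29093818. In the upstream window the capitals mark a p53 site of 2 half-sites of 10 bases with no spacer. In the downstream window the capitals mark 2 copies of the GC box GGGCGG, the element that Sp1 factors bind.
Cdkn1a upstream start: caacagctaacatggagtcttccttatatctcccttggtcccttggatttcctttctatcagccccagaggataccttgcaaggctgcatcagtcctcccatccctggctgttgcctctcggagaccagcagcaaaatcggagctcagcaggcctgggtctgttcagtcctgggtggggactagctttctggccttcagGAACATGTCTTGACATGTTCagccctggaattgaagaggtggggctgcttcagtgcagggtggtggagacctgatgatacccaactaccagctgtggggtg
Cdkn1a downstream start: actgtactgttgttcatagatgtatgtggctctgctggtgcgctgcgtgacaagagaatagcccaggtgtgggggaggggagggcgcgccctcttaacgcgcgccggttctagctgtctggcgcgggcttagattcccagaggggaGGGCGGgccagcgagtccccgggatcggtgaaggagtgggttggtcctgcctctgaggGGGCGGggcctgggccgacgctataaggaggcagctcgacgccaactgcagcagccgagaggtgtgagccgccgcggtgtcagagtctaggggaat

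The site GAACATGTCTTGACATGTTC spans bases 29090928 to 29090947, 31 bases before the upstream start and 2821 bases before the downstream one. It was found in a search of both strands for the p53 response element, taken as paired half-sites with at most 1 mismatch outside their cores. The allowance of 1 mismatch was set after this sequence had been seen. By that rule 18 of 32851 windows held a site (0.0548%), and 3 (0.00913%) held one with no mismatch. None of the other 8 windows of CDK inhibitor genes held such a site. The GC box GGGCGG stood in 35.7% of all windows, and TATAA, which lies 20 bases before the downstream Cdkn1a start, in 24.9%. These are matches of letters only.

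Cdkn1a, which encodes p21, had the largest treatment differences of the 5 genes tested, in both grades. On its brighter probe set (1424638_at) the 6 treated grade 3 tumours read 11.87, 11.35, 10.57, 11.45, 11.13 and 10.52, against 10.40 in 8584T3, 9.001 in 8565T1, 9.34 in 8629T10 and 9.19 in 8629T12 among untreated grade 3 tumours. The groups did not overlap, although 8584T3 lay just below the lowest 2 tumours of 8688. Treated grade 3 tumours averaged 11.15 ± 0.523 and untreated ones 9.48 ± 0.627 (SD, n = 6 and 4). The fitted difference was 1.53 ± 0.43 (SE; 95% interval 0.62 to 2.45), or 2.90-fold. The adjusted p over all 11884 probe sets tested was 0.160 (limma with the mouse as a random block, Benjamini-Hochberg), so the difference did not pass the threshold of 0.05.

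In grade 2 the same probe set read 11.27, 10.9996 and 11.11 in the treated tumours of 8688 and 11.06 in 8639T4. Among untreated grade 2 tumours it read 10.80 and 10.63 in mouse 8700, but 9.02 and 8.88 in mouse 8565. All 4 treated tumours lay above all 4 untreated ones, with means of 11.11 ± 0.118 and 9.83 ± 1.02 (SD, n = 4 each). The fitted difference was 1.24 ± 0.44 (SE; 95% interval 0.30 to 2.17), or 2.36-fold, with an adjusted p of 0.525 (limma). It was 0.39 when mouse 8565 was left out and 2.01 when mouse 8700 was left out, so that its size rested on which untreated mouse it was set against.

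The second Cdkn1a probe set (1421679_a_at) gave the same order. Treated grade 3 tumours ran from 6.17 to 8.40 with a median of 7.50, against 4.85 to 6.16 in untreated grade 3 tumours. In grade 2 the ranges were 6.92 to 7.62 in treated and 4.96 to 6.73 in untreated tumours. The fitted differences were 1.73 ± 0.53 in grade 3 and 1.36 ± 0.55 in grade 2 (SE), with adjusted p of 0.221 and 0.639 (limma). The probe set lay above the array median on all 10 treated arrays, but on 1 of 4 untreated grade 3 and 2 of 4 untreated grade 2 arrays. It thus met the filter of 4 arrays only through the treated tumours, where it was high. In the fit without the filter its differences were 1.75 in grade 3 and 1.36 in grade 2, with adjusted p of 0.200 and 0.668 (limma). Over the 18 tumours the 2 probe sets had a Pearson r of 0.983, and of 0.956 after each group's mean was removed; both read the same RNA from the same arrays.

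**Figure D1:**
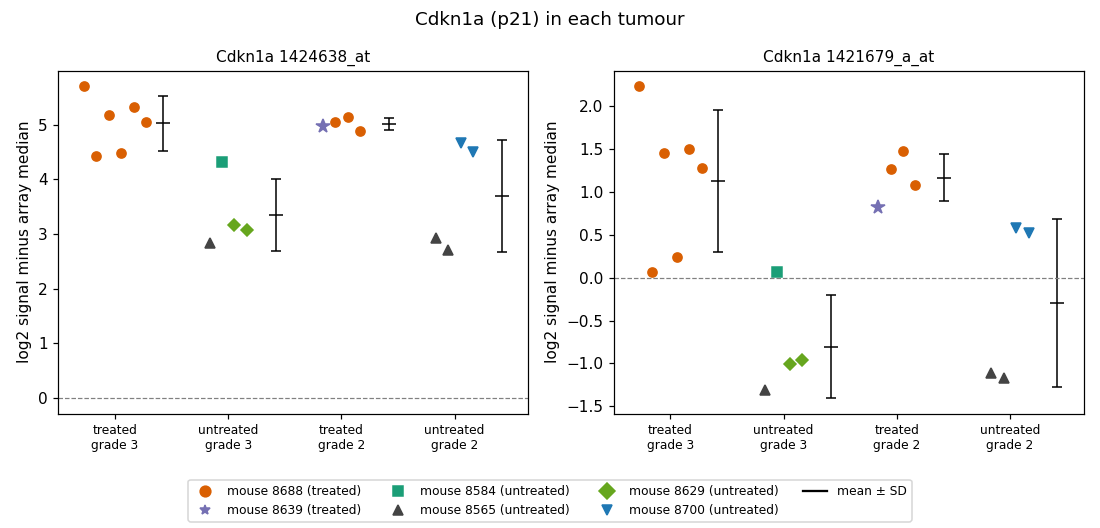
Signal of both Cdkn1a probe sets in each of the 18 tumours, as log2 signal minus the array median (dashed line at 0), by group on the x axis, with markers for the 6 mice and bars for mean ± SD. The treated tumours sit above the untreated tumours of their grade, and the untreated ones fall apart by mouse, with 8584 and 8700 above 8565 and 8629.

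Cdkn1a also varied among untreated mice. On 1424638_at the mouse means were 11.14 in 8688 (9 tumours) and 11.06 in 8639 (1 tumour), against 10.71 in 8700 (2 tumours), 10.40 in 8584 (1 tumour), 9.27 in 8629 (2 tumours) and 8.97 in 8565 (3 tumours). The gap between the untreated mice 8700 and 8565 was thus larger than that between either treated mouse and 8700. Both treated mice lay above all 4 untreated mice, with a difference of 1.26 between the means of mouse means. An exact two-sided permutation test over the mice gave p = 0.133, the smallest value that 2 against 4 mice allow. The SD between tumours of 1 mouse and group was 0.380, against 0.960 over all 18 tumours.

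With both grades averaged, the treatment difference of Cdkn1a on 1424638_at was 1.39 ± 0.36 (SE; 95% interval 0.63 to 2.14), or 2.61-fold, with an adjusted p of 0.112 (limma). When 8584T3, the highest untreated grade 3 tumour, was left out, the difference was 1.91 in grade 3 (adjusted p = 0.0206, limma) and 1.59 averaged (adjusted p = 0.00697, limma), and passed. It was the untreated grade 3 tumour nearest the treated ones, so the choice of tumour itself widened the difference. Calls over all 11884 probe sets tested rose too, from 56 to 233 in grade 3 and from 77 to 317 averaged. The averaged difference was 1.82 (adjusted p = 0.0253, limma) without mouse 8700 and 0.89 (adjusted p = 0.9997, limma) without mouse 8565. Without 8688T3 and 8639T4, the tumours with the 3' excess, the differences were 1.65 in grade 3 and 1.26 in grade 2.

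Grade made little difference to Cdkn1a within a mouse. In mouse 8688 it averaged 11.15 in 6 grade 3 tumours and 11.13 in 3 grade 2 tumours, and in mouse 8565 9.001 in 1 grade 3 tumour and 8.95 in 2 grade 2 tumours. Across groups the fitted difference, grade 3 minus grade 2, was 0.04 ± 0.32 in treated and -0.26 ± 0.39 in untreated tumours (SE). The treatment difference in grade 3 minus that in grade 2 was 0.30 (95% interval -0.77 to 1.36; adjusted p = 0.875, limma), an interval wide enough to hold a difference of either sign. Without 8584T3 the grade difference in untreated tumours was -0.60 (adjusted p = 0.519, limma) and the interaction 0.64 (adjusted p = 0.692, limma), and without mouse 8700 they were 0.41 and -0.38. With array weights the grade difference in untreated tumours passed, at -1.24 (adjusted p = 0.0280, limma).

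Of the 9 CDK inhibitor probe sets, 7, from 5 genes, exceeded the array median on 4 or more arrays and were tested. None of the 7 passed in any of the 6 comparisons by limma. Unadjusted p under 0.05 held for 2 in grade 3, 3 in grade 2, 3 averaged over grades, 1 for the interaction, 0 for grade in treated and 1 for grade in untreated tumours. The shares of all probe sets tested that did so were, in the same order, 8.42%, 6.9%, 7.99%, 8.61%, 1.62% and 11.7%. Over all 11884 probe sets tested, 0.471% passed for treatment in grade 3, 0.0841% in grade 2, 0.648% averaged, 0% for the interaction, 0% for grade in treated and 0.168% for grade in untreated tumours. Without overlap between the groups were 2 of the 7 for treatment in grade 3 (4.62% of all probe sets tested), 3 in grade 2 (8.04%), 0 for grade in treated (0.656%) and 0 for grade in untreated tumours (6.02%). The 2 in grade 3 were those of Cdkn1a, and the third in grade 2 was that of Cdkn2b. Of the Cdkn1a probe sets, 1421679_a_at met the filter only through treated tumours, where it was high. It is a second reading of the same gene, so these counts do not hold it as separate support. Its grade 3 groups parted by a narrow gap, with 6.17 in the treated 8688T11 and 6.16 in the untreated 8584T3.

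**Figure D2:**
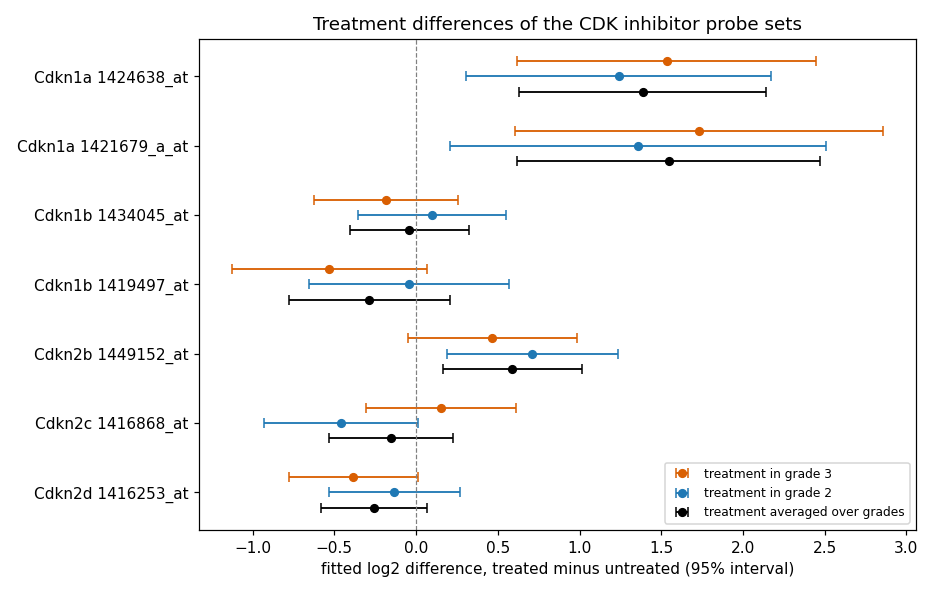
Fitted treatment difference (treated minus untreated, log2, x axis) with 95% intervals for the 7 tested CDK inhibitor probe sets, in grade 3, in grade 2 and averaged. The intervals of both Cdkn1a probe sets lie above 0 in each comparison, those of Cdkn2b do in grade 2 and averaged, and the others include 0. Tumours of a mouse are not independent, so these intervals are too narrow and do not show a difference between mice.

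Cdkn1b encodes p27, which restrains CDK2 in resting cells and is controlled largely at the level of protein turnover. On 1434045_at the means were 11.19 ± 0.170 in treated and 11.29 ± 0.249 in untreated grade 3 tumours (SD, n = 6 and 4), and 11.26 ± 0.295 in treated and 11.09 ± 0.315 in untreated grade 2 tumours (SD, n = 4 each). The fitted treatment differences were -0.18 (95% interval -0.62 to 0.26) in grade 3 and 0.10 (-0.35 to 0.55) in grade 2. With array weights, and in no other fit, the grade 2 difference passed, at 0.35 (adjusted p = 0.0274, limma). The range over all 18 tumours was 0.806, the smallest of the 9 probe sets.

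The second Cdkn1b probe set (1419497_at) ran from 6.42 to 7.58 in treated grade 3 tumours, against 7.14 to 7.91 in untreated grade 3 tumours. The 2 tumours of mouse 8629 were its highest, and the lowest was 8688T3, the tumour with the largest 3' excess. The fitted difference in grade 3 was -0.53 ± 0.28 (SE; adjusted p = 0.654, limma), and -0.28 without 8688T3 and 8639T4. In grade 2 it was -0.04 ± 0.29 (SE). The 2 Cdkn1b probe sets had an r of 0.207 over the 18 tumours, so that they gave no common order of tumours.

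Cdkn1c encodes p57, an imprinted inhibitor that acts mainly in development. Its probe set (1417649_at) lay below the array median on all 18 arrays and was not tested. It averaged 3.99 ± 0.131 in treated and 3.77 ± 0.144 in untreated grade 3 tumours (SD, n = 6 and 4), and 4.28 ± 0.465 in treated and 3.89 ± 0.449 in untreated grade 2 tumours (SD, n = 4 each). The highest tumour was 8639T4 at 4.94 and the lowest was 8700T1 at 3.30. The groups overlapped in both grades.

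Cdkn2b encodes p15, which inhibits CDK4 and CDK6 and is known for its induction by TGF-beta. Its probe set (1449152_at) read 9.34, 9.46, 9.52, 9.51, 9.56 and 9.37 in treated grade 3 tumours, a narrow range. Untreated grade 3 tumours read 9.80 in 8584T3, 8.81 in 8565T1, 9.08 in 8629T10 and 8.85 in 8629T12. All 6 treated tumours thus lay above 3 untreated ones and below 8584T3. The fitted difference was 0.47 ± 0.24 (SE; 95% interval -0.05 to 0.98; adjusted p = 0.640, limma). Over the further fits it ran from 0.27 with animal means to 1.24 with sex as a covariate. All treated grade 3 tumours came from the only female mouse. The value with sex thus rested on 8639T4, a grade 2 tumour and the only treated one from a male. With array weights the grade 3 difference passed, at 0.53 (adjusted p = 0.0464, limma).

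In grade 2, Cdkn2b read 9.66, 9.24 and 9.06 in treated tumours of 8688 and 10.25 in 8639T4, against 8.83 and 8.95 in mouse 8700 and 8.91 and 8.81 in mouse 8565 among untreated tumours. The groups did not overlap, and 8639T4 was the highest of all 18 tumours. The fitted difference was 0.71 ± 0.25 (SE; 95% interval 0.19 to 1.24; adjusted p = 0.516, limma), or 1.64-fold. It was 0.41 without 8639T4 and 0.40 without 8639T4 and 8688T3. With sex as a covariate, which parts 8688 from the other mice, it was 1.34 and rested on 8639T4, the only treated tumour from a male. Averaged over grades it was 0.59 ± 0.20 (SE; adjusted p = 0.322, limma) and passed without 8584T3, at 0.67 (adjusted p = 0.0203, limma), and with array weights, at 0.50 (adjusted p = 0.00217, limma). 8584T3 was the highest untreated tumour for Cdkn2b too, so here again the choice of tumour widened the difference. The averaged difference was 0.36 without 8639T4 (adjusted p = 0.775, limma). It was 1.29 with sex as a covariate (adjusted p = 0.143, limma), where it again rested on 8639T4. With array weights the grade 2 difference passed too, at 0.46 (adjusted p = 0.0135, limma).

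Cdkn2a encodes p16 and ARF. Its probe set (1450140_a_at) is of a type that can read several transcripts of a gene, so p16 and ARF RNA cannot be told apart here. It lay below the array median on all 18 arrays and was not tested, which makes its values a description of a dim signal. Treated grade 3 tumours averaged 5.02 ± 0.532 and untreated grade 3 tumours 5.53 ± 0.410 (SD, n = 6 and 4). Treated grade 2 tumours averaged 4.86 ± 0.789 and untreated grade 2 tumours 4.24 ± 0.375 (SD, n = 4 each). The treated and untreated groups overlapped in both grades.

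Between grades of untreated tumours, Cdkn2a did not overlap; the count of 0 given above covers tested probe sets, of which Cdkn2a was none, and 6.02% of those tested did not overlap in this comparison. Untreated grade 3 tumours ran from 4.95 to 5.82 and untreated grade 2 tumours from 3.71 to 4.56. In the fit without the filter the difference was 1.16 ± 0.38 (SE; adjusted p = 0.236, limma) and did not pass. In the one untreated mouse with both grades, 8565, the grade 3 tumour read 4.95 and its 2 grade 2 tumours averaged 4.41. In mouse 8688 the 6 grade 3 tumours averaged 5.02 and the 3 grade 2 tumours 4.53, with ranges that overlapped. The highest of all tumours was the treated grade 2 tumour 8639T4, at 5.83.

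**Figure D3:**
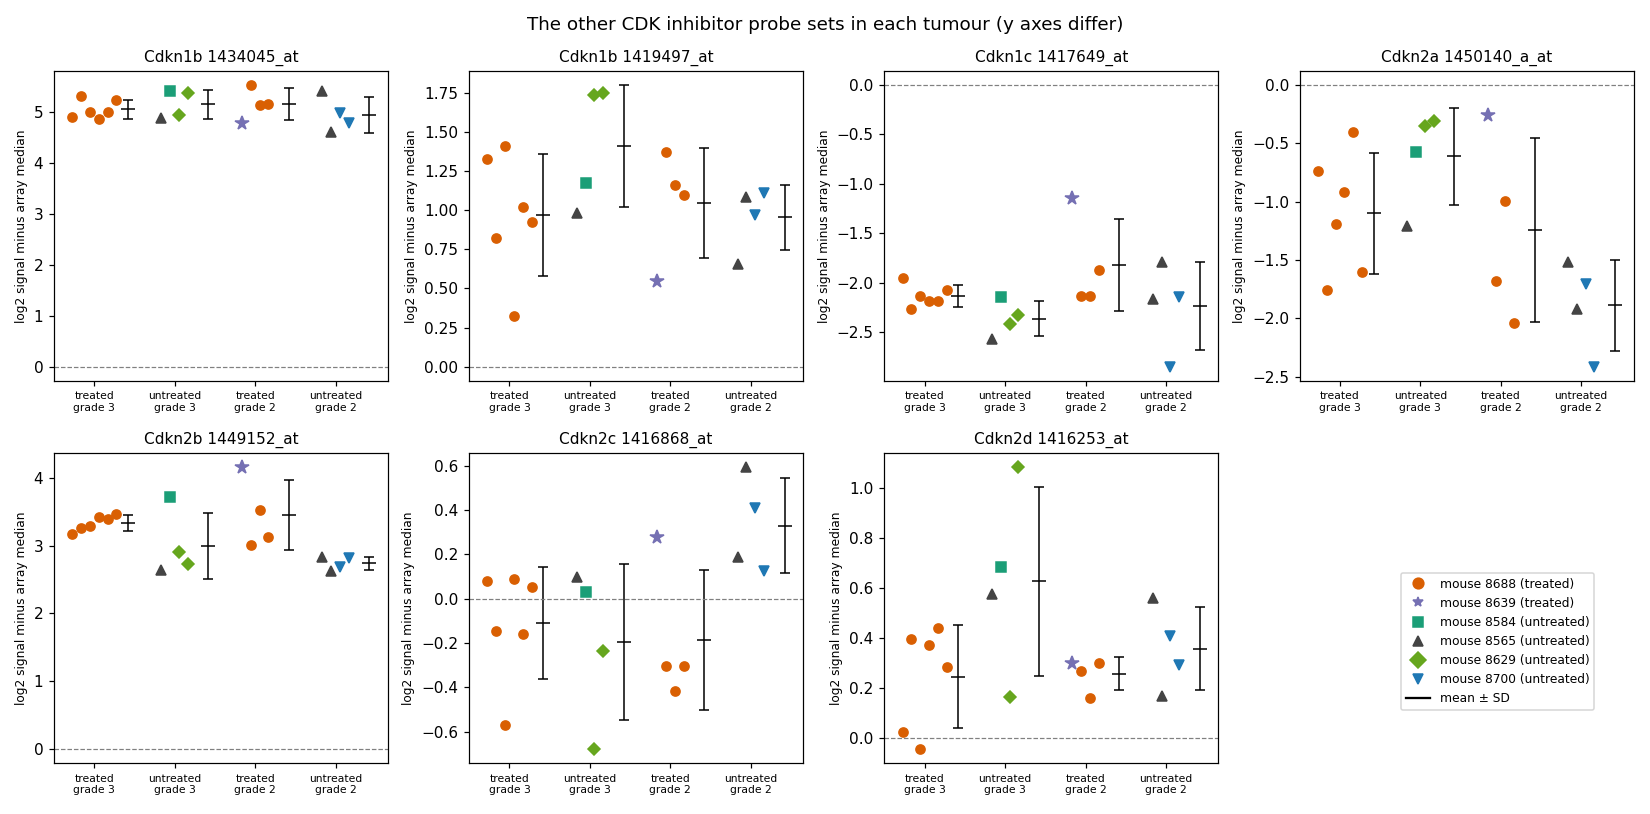
Signal of the other 7 CDK inhibitor probe sets in each tumour, as log2 signal minus the array median (dashed line at 0, where shown), by group on the x axis, with markers for mice and bars for mean ± SD. Cdkn1c and Cdkn2a lie below the array median in every tumour, and 8639T4 is the highest tumour for Cdkn1c, Cdkn2a and Cdkn2b.

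Cdkn2c encodes p18, an INK4 inhibitor that is itself an E2F target. Its probe set (1416868_at) lay close to the array median and above it on 10 of 18 arrays. In grade 2 the treated tumours of 8688 ran from 5.72 to 5.82 and 8639T4 read 6.37, against 6.25 to 6.77 in untreated tumours. The 3 tumours of 8688 lay below all untreated grade 2 tumours, and 8639T4 lay within their range. The fitted difference was -0.46 ± 0.22 (SE; adjusted p = 0.730, limma). It was -0.06 with sex as a covariate, where it rested on 8639T4, the only treated tumour from a male. With array weights the difference passed, at -0.51 (adjusted p = 0.0159, limma).

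In grade 3, Cdkn2c averaged 6.02 ± 0.234 in treated and 5.94 ± 0.336 in untreated tumours (SD, n = 6 and 4), with a fitted difference of 0.15 ± 0.22 (SE). The treatment difference in grade 3 minus that in grade 2 was 0.61 ± 0.26 (SE; 95% interval 0.08 to 1.15), with an unadjusted p of 0.0278 and an adjusted p of 0.575 (limma). Untreated grade 3 minus untreated grade 2 tumours gave -0.46 ± 0.20 (SE; adjusted p = 0.382, limma), and -0.27 without mouse 8629. None of these differences passed the threshold.

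Cdkn2d encodes p19-INK4d, whose RNA is known to cycle with S phase. Its probe set (1416253_at) averaged 6.37 ± 0.176 in treated and 6.76 ± 0.359 in untreated grade 3 tumours (SD, n = 6 and 4), and 6.36 ± 0.0577 in treated and 6.49 ± 0.132 in untreated grade 2 tumours (SD, n = 4 each). The highest tumour was the untreated 8629T12 at 7.21. The fitted treatment differences were -0.38 ± 0.19 in grade 3 and -0.13 ± 0.19 in grade 2 (SE), with adjusted p of 0.612 and 0.892 (limma). The groups overlapped in both grades.

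Genes around the CDK inhibitors were read from 6 lists, each gene through its brightest probe set on average. Among S and M phase genes, 16 of 23 measured genes were tested, and 4 fell with treatment in grade 3. These were Cdca3 (-1.70 ± 0.32), Nusap1 (-2.003 ± 0.42), Cdc20 (-1.51 ± 0.32) and Tk1 (-1.41 ± 0.30; SE), with adjusted p of 0.0201, 0.0427, 0.0427 and 0.0452 (limma). Cdc20 activates the anaphase-promoting complex, Nusap1 bundles spindle microtubules, Cdca3 promotes mitotic entry and Tk1 makes thymidine monophosphate for DNA synthesis. In grade 2 none of the 16 passed. The smallest p there were those of Cdc20 (-1.42, adjusted p = 0.151, limma) and Nusap1 (-1.39, adjusted p = 0.453, limma). With both grades averaged 5 fell, Cdc20, Cdca3, Nusap1, Tk1 and the spindle checkpoint kinase Bub1b. Cdca3, Tk1, Nusap1 and Bub1b exceeded the array median on 0, 0, 3 and 1 of the 10 treated arrays, but on 6, 8, 8 and 8 of the 8 untreated ones. They met the filter only through the untreated tumours, where they were high, so the counts over tested genes support nothing about the list. Cdc20 exceeded the array median on 8 of 10 treated and 8 of 8 untreated arrays. In the fit without the filter the 4 genes passed in grade 3 and the 5 passed averaged, with the highest adjusted p at 0.0451 and 0.0340 (limma).

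Of the CDKs, cyclins and CDK activators, which include the partners of the inhibitors, 13 of 18 measured genes were tested. None passed in grade 3 or in grade 2. The smallest p in grade 3 were those of cyclin B2 (Ccnb2, -1.39, adjusted p = 0.0582, limma) and cyclin A2 (Ccna2, -1.43, adjusted p = 0.0613, limma). In grade 2 they were those of Ccnb2 (-0.98, adjusted p = 0.467, limma) and Cdk1 (-1.28, adjusted p = 0.501, limma). Averaged over grades Ccnb2 fell, at -1.19 ± 0.26 (SE; adjusted p = 0.0417, limma), and at -1.18 in the fit without the filter (adjusted p = 0.0447, limma). It too met the filter only through untreated tumours, exceeding the array median on 0 of 10 treated and 5 of 8 untreated arrays. Cdk4, whose kinase INK4 proteins bind, differed by 0.12 in grade 3 and -0.14 in grade 2, and Cdk6 was not tested. Cdk2, whose kinase p21 inhibits above all, differed by -0.05 and -0.13. Cdk1 differed by -1.53 in grade 3 (adjusted p = 0.156, limma). It averaged 5.79 and 5.54 in treated grade 3 and grade 2 tumours, below every array median, against 7.24 and 6.80 in untreated ones. The untreated tumours may thus have carried Cdk1 through the filter.

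None of the 6 tested genes of the RB and E2F families passed in any treatment comparison. The smallest p were those of E2f6 (0.41) and E2f5 (-0.22) in grade 3, and of Tfdp1 (-0.37) and Rbl2 (0.56) in grade 2. None of 9 tested genes that act in the turnover of CDK inhibitors passed either. The smallest p in grade 3 were those of Cks2 (-1.03, adjusted p = 0.0769, limma), a small CDK-binding protein, and of Dtl (-0.98, adjusted p = 0.354, limma), the substrate receptor that marks p21 for degradation in S phase. Dtl averaged 5.42 and 5.34 in treated grade 3 and grade 2 tumours, below every array median, against 6.32 and 6.30 in untreated ones. The untreated tumours may thus have carried Dtl through the filter. Of 18 tested regulators of transcription of CDK inhibitor genes none passed. The smallest p were those of Tbx2 (0.95, adjusted p = 0.119, limma), a repressor of Cdkn1a and Cdkn2a, and the Polycomb methyltransferase Ezh2 (-0.52, adjusted p = 0.401, limma) in grade 3, and of Foxo3 (0.41) and Id2 (0.43) in grade 2.

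Among MDM2 partners and other arrest targets of p53, 14 of 16 measured genes were tested. None passed in grade 3, where the median difference was 0.36 against 0.03 over all probe sets tested, nor in grade 2, where it was 0.22 against 0.01. Of the 14, 10 lay above 0 and 4 below in grade 3, and 8 above and 6 below in grade 2. Mdm2 itself differed by 0.40 in grade 3 and -0.007 in grade 2, with adjusted p of 0.626 and 0.995 (limma). Gadd45a, a growth arrest gene induced by DNA damage, differed by 1.03 in grade 3 (adjusted p = 0.0521, limma) and 0.65 in grade 2 (adjusted p = 0.524, limma). Cyclin G1 (Ccng1), a p53 target, differed by 0.80 and 0.50, with adjusted p of 0.0884 and 0.637 (limma). Averaged over grades 1 gene rose, Gadd45a, at 0.84 ± 0.19 (SE; adjusted p = 0.0444, limma). Since lists were named for cell cycle and p53 genes with earlier results of these data known, their direction is not independent evidence.

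Read per tumour, the mean of the 16 p53 list genes did not overlap between treated and untreated tumours, with 2.16 to 2.60 against 1.84 to 2.08 above the array median in grade 3 and 2.272 to 2.45 against 1.86 to 2.267 in grade 2. The mean of the 23 S and M phase genes was 0.51 to 1.07 in treated and 0.81 to 2.03 in untreated grade 3 tumours. In grade 2 it was 0.14 to 0.80 in treated and 0.995 to 1.53 in untreated tumours, without overlap. Of the 6 lists, 1 did not overlap in grade 3 and 3 did not in grade 2. The third in grade 2 was CDKs, cyclins and CDK activators, at 0.69 to 0.83 in treated and 0.97 to 1.12 in untreated tumours. Among untreated tumours, those of 8584 and 8700, where Cdkn1a was higher, read 0.81 to 1.03 on the S and M phase list, and those of 8565 and 8629, where it was lower, read 1.33 to 2.03. These 3 and 5 tumours came from 2 mice each, so this is a description of 4 mice, with no test.

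**Figure D4:**
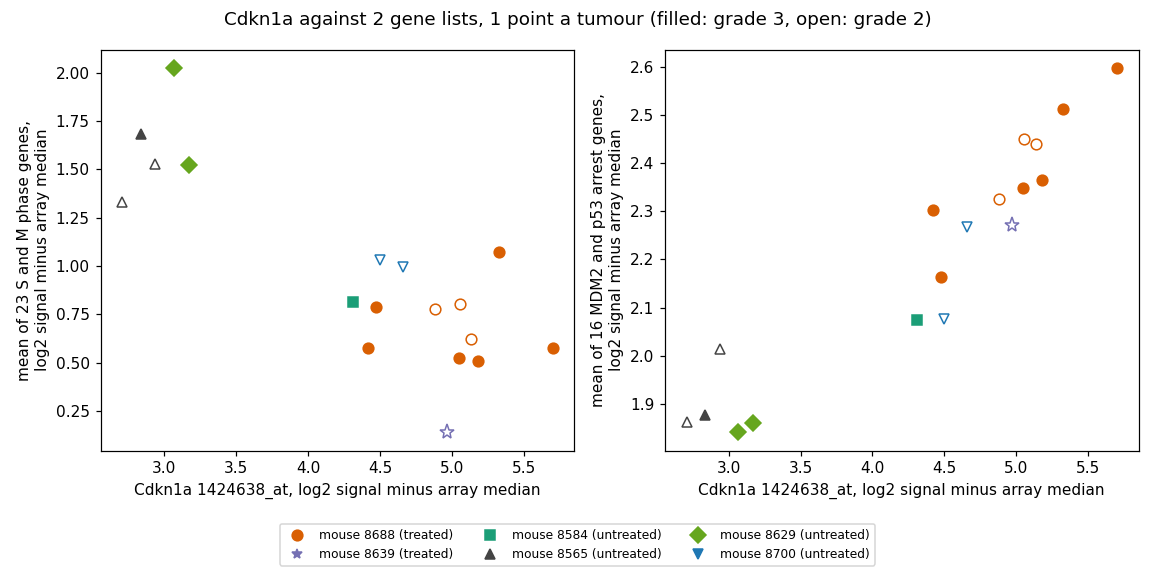
Cdkn1a on 1424638_at (x axis, log2 signal minus array median) against the mean of 23 S and M phase genes (left) and of 16 MDM2 and p53 arrest genes (right), 1 point a tumour, with markers for mice, filled for grade 3 and open for grade 2. The untreated tumours of mice 8565 and 8629 lie apart, at low Cdkn1a, high S and M phase values and low p53 list values.

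Markers of other cell types also moved with the groups. In grade 3 the mean levels of 3 of 11 marker lists did not overlap between treated and untreated tumours: alveolar type 1 (mean 5.06 against 4.45 above the array median), club and ciliated cells (-0.28 against 1.37) and erythroid cells (-2.18 against -0.67). In grade 2 the 3 were B and plasma cells (1.16 against 1.93), fibroblasts (3.18 against 3.67) and erythroid cells (-1.92 against -0.33). The erythroid markers Hba-a1 and Alas2 lay above the array median on no array, as did the ciliated markers Foxj1 and Tekt1, the B cell marker Cd79a and the fibroblast marker Lum. Between untreated grade 3 and untreated grade 2 tumours, where Cdkn2a did not overlap, the alveolar type 1 list did not overlap either (4.45 against 4.997). Their part in the Cdkn1a, Cdkn2a and Cdkn2b values was not tested.

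The genes whose pattern over the 18 tumours was most like that of Cdkn1a, among 10898 probe sets of other genes, were Slc19a2, a thiamine transporter (r = 0.973), Phlda3, an inhibitor of AKT (r = 0.944), and Ccng1 on its probe set 1450016_at (r = 0.940). The most opposed were Egr2, a zinc finger transcription factor (r = -0.911), and the spindle genes Aspm (r = -0.907) and Tpx2 (r = -0.893). Slc19a2 averaged 8.004 in treated and 6.37 in untreated tumours, Aspm 5.78 and 6.90, and Tpx2 5.56 and 6.65. The treated means of Aspm and Tpx2 lay below every array median, so the untreated tumours may have carried them through the filter. No r with each group's mean removed was computed for these genes, so each r includes the difference between treated and untreated tumours. The tumours share arrays, mice and normalisation, and these correlations are descriptions over 18 points from 6 mice.

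The other members were most like other genes. Cdkn1b on 1434045_at was closest to Ankrd10, Smndc1 and Psmc6 (r = 0.953, 0.945 and 0.944), and Cdkn2b to Anapc16, Zscan12 and Ptpn21 (r = 0.894, 0.885 and 0.857). Cdkn2c was closest to Egfl7, Psmd1 and Ran (r = 0.844, 0.823 and 0.823), and Cdkn2d to the spindle checkpoint gene Mad2l1, Tnfaip8 and Zfp955a (r = 0.881, 0.846 and 0.844). Between members of different genes, the largest r with Cdkn1a on 1424638_at were 0.597 for Cdkn2b and -0.542 for Cdkn2d. After each group's mean was removed these were 0.299 and -0.163.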

How the data were processed

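Per the submitters' processing notes, the values the authors deposited are log2 signals from GCRMA 2.20.0 (R 2.11.0). GCRMA equalises signal quantiles across arrays, which takes out differences in total RNA. Batches were not given in the sources. Of 22690 probe sets, 20380 had 1 symbol in the platform annotation. Those above their array's median on at least 4 arrays, 11884, were tested with limma 3.58.1 in R 4.3.3: 4 group means over 18 tumours, the mouse as a random block (correlation 0.255), Benjamini-Hochberg adjustment over all, threshold 0.05. A probe set could pass this filter through 1 group. The number of arrays limits the precision. The steps were tested on simulated data. Group values are means ± SD of deposited signals; fitted differences weight tumours by the block and can differ from plain differences. Non-members came from fixed lists: those called, otherwise the 2 smallest p, plus CDKs and Mdm2 named with their values. Likeness used Pearson r. The members and lists were chosen with earlier results of these data known.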

Additional observations from a re-analysis of the deposited data

Results flagged for a closer look

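In 1 of the 36 sets of 4 or 6 tumours checked (9 probe sets in 4 groups), a tumour lay far from the others of its group. Cdkn2c (1416868_at) read 6.37 in the treated grade 2 tumour 8639T4, against 5.72 to 5.82 in the other 3 treated grade 2 tumours. The gap made up 0.854 of the group's range. Chance flags about 1 in 20 such sets. The tumour is the only one from mouse 8639, from a male, and had the second highest 3' minus 5' signal, at 1.85. Their part in this value was not tested.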

How the results depend on the processing

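Of the 37 further fits, 1 was added after seeing the data, which left out 8688T3 and 8639T4. The count of CDK inhibitor probe sets called was 0 in the reported fit of every comparison. Without the animal term it was 2 for treatment in grade 3 and 2 averaged over grades, both Cdkn1a probe sets each time. With array weights, which ran from 0.210 to 6.25, it was 3 in grade 3, 3 in grade 2, 3 averaged over grades and 2 for grade in untreated tumours. These were both Cdkn1a probe sets and Cdkn2b in grade 3 and averaged, Cdkn1b 1434045_at, Cdkn2b and Cdkn2c but not Cdkn1a in grade 2, and both Cdkn1a probe sets for grade. Without mouse 8700 it was 1 averaged over grades. Leaving out 1 tumour at a time gave 0 to 2 in grade 3 and 0 to 3 averaged, and the counts above 0 came without 8584T3. In that fit 233 of all 11884 probe sets tested passed in grade 3 and 317 averaged, against 56 and 77 in the reported fit. For Cdkn1a on 1424638_at the treatment difference passed at 1.67 without the animal term, 2.00 with array weights and 1.91 without 8584T3 in grade 3, where leaving out 1 tumour gave 1.39 to 1.91. Averaged over grades it passed at 1.47 without the animal term, 1.31 with array weights and 1.82 without mouse 8700, and leaving out 1 tumour gave 1.27 to 1.59. Over all the further fits, most of which did not pass, it ran from 1.27 to 2.00 in grade 3 and from 0.89 to 1.82 averaged. In these treatment comparisons the sign of the Cdkn1a difference changed under none of the fits.

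The following differences changed sign. None of them passed, before or after, and the cause was not tested. For treatment in grade 3, Cdkn1b 1434045_at was 0.068 with array weights, and Cdkn2c was -0.0069 with animal means, -0.021 with array weights and -0.057 without mouse 8629. In grade 2, Cdkn1b 1434045_at was -0.24 with sex as a covariate, -0.0042 without mouse 8700 and -0.074 to 0.28 without 1 tumour. Cdkn1b 1419497_at was 0.058 without the animal term, 0.017 with only the groups compared, 0.031 with array weights, 0.18 without 8688T3 and 8639T4, and -0.20 to 0.19 without 1 tumour. Averaged, Cdkn1b 1434045_at was 0.034 without the animal term, 0.21 with array weights, 0.11 without 8688T3 and 8639T4, and -0.13 to 0.089 without 1 tumour. Cdkn2c was 0.30 averaged with sex as a covariate. Treatment differences with sex as a covariate rested on 8639T4, the only treated tumour from a male. For the interaction, Cdkn1a was -0.38 (1424638_at) and -0.28 (1421679_a_at) without mouse 8700, and Cdkn2b was 0.071 with array weights. For grade in untreated tumours, Cdkn1a was 0.41 and 0.23 without mouse 8700, and Cdkn1b 1434045_at was -0.020 to 0.34 without 1 tumour.

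For grade in treated tumours, Cdkn1a 1424638_at was -0.010 for the mean of its probe sets and -0.11 to 0.16 without 1 tumour. Cdkn1a 1421679_a_at was 0.11 with animal means, 0.067 with array weights, 0.057 without 8688T3 and 8639T4, and -0.28 to 0.17 without 1 tumour. With animal means, Cdkn1b was 0.055 (1434045_at) and 0.12 (1419497_at) and Cdkn2c -0.049, and without 1 tumour Cdkn1b 1419497_at was -0.22 to 0.013. Cdkn2b was 0.14 with sex as a covariate, 0.10 with array weights, 0.030 without mouse 8565, 0.13 without 8688T3 and 8639T4, and -0.18 to 0.14 without 1 tumour. Cdkn2d was -0.012 after a further quantile normalisation, -0.0073 with array medians subtracted, and -0.021 to 0.065 without 1 tumour. Leaving out mouse 8688 was not possible, since it held all treated grade 3 tumours. No paired analysis was possible because the numbers in the tumour names count tumours within a mouse and pair none across groups, and no mouse carried both treated and untreated tumours. Mice 8688 and 8565 carried both grades, and their within-mouse values stand beside the grade comparisons of Cdkn1a and Cdkn2a.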
